A study of Danio rerio with 8 samples.

Results

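The Msx and Dlx genes encode homeobox transcription factors, and 10 zebrafish members of these families were looked up in a table of RNA-seq read counts (msx1a, msx1b, msx2b, msx3, dlx1a, dlx2a, dlx3b, dlx4b, dlx5a and dlx6a). A row was accepted by its symbol, or by the symbol without its paralog letter where the symbol table has none, and 9 of the 28272 rows matched, for 8 of the 10 members. Members are named as that table spells them. msx1b, msx3 and dlx4b matched in full, while the rows DLX1, DLX3, DLX5 and DLX6 carry no letter and stand for dlx1a, dlx3b, dlx5a and dlx6a, the only genes of those names in RefSeq's zebrafish annotation. A further 2 rows are both named DLX2 (ENSDARG00000079964 and ENSDARG00000017174). RefSeq lists dlx2a and dlx2b, and no table used here says which row is which, so the rows are kept apart by their identifiers. No row matched msx1a or msx2b, which are not analysed here. The members were chosen with the difference between the groups already in view, so their values in that comparison are a description and carry no p-value.

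RNA had been sequenced from EGFP-positive cells without pigment, isolated by cell sorting from adult fish, in 4 libraries that the labels call scale melanocytes and 4 called melanomas. The study asked which genes are expressed differently in the 2 cell types. Both groups share a strain that carries BRAF with the V600E change and EGFP, each under the mitfa promoter, which is active in pigment cells and their precursors, and the alb(b4) allele of a locus needed for melanin. The labels do not say whether the libraries came from separate fish, or whether cells of several fish were pooled, so p-values for other genes reflect only how far these libraries differ among themselves, which can be technical spread. The libraries held between 86888494 and 100270657 counts, a depth at which 3 counts, taken as the limit for a count of 0, corresponded to between 0.0183 and 0.0667 CPM. Such limits cover counting error only.

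Msx proteins act mostly as transcriptional repressors. They are induced by BMP signals at the edge of the neural plate, in tooth and limb or fin buds and in skin appendages. Dlx proteins mostly activate transcription, and most of their genes lie in pairs that point towards each other and share enhancers. dlx1a and dlx2a are known from the forebrain and from the neural crest of the pharyngeal arches, dlx3b and dlx4b from the otic and olfactory placodes, and dlx5a and dlx6a from the arches, fins and bone. Pigment cells arise from the neural crest, which forms at the same embryonic border that expresses these genes.

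The cells in the first group did not carry the profile that their label names, and they are called the scale libraries below. Over 17 rows of melanocyte markers, summed expression lay between 103 and 149 CPM over the scale libraries, against 2584 and 12544 CPM over the melanomas; CPM is the count scaled to a common library size with TMM factors. Over 21 rows of epidermal markers it lay between 59705 and 127400 CPM over the scale libraries, against 524 and 937 CPM over the melanomas. No row of either list was at 0 in all libraries of a group. Markers of scale and bone (22 rows) summed to 652, 1124, 4646 and 9530 CPM in scale replicate 1, scale replicate 2 and the first and second columns of scale replicate 3, and to between 180 and 997 CPM in melanoma. Both last columns carry the name of replicate 3 in the table. In bulk samples, fewer cells of a type and less RNA per cell cannot be told apart.

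Of the 9 rows, 7 had a lower mean and 2 a higher mean in melanoma than in the scale libraries, and their median log2 change was -3.35, beside 0.05 over all 26749 genes tested. edgeR's quasi-likelihood test called 5 members lower and 1 higher at an adjusted p under 0.05 and left 3 uncalled. Over all genes tested it called 36.8% (21.7% higher and 15.2% lower). The groups did not overlap for the same 6 members, and for 36.9% of all genes (21.7% higher and 15.2% lower). All 9 rows passed the filter on low counts. Leaving out scale replicate 2 and the second column of scale replicate 3, the 2 scale libraries with the fewest genes at 10 or more counts (called less complex below), also gave 5 lower and 1 higher. Since the members were picked on this contrast, nothing is read from their counts. The split over all genes, 5799 higher and 4056 lower, became 4041 and 5667 with upper quartile scaling and 10873 and 1778 with total counts alone, which moved the median of all genes to -0.39 and 1.17.

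**Figure D1:**
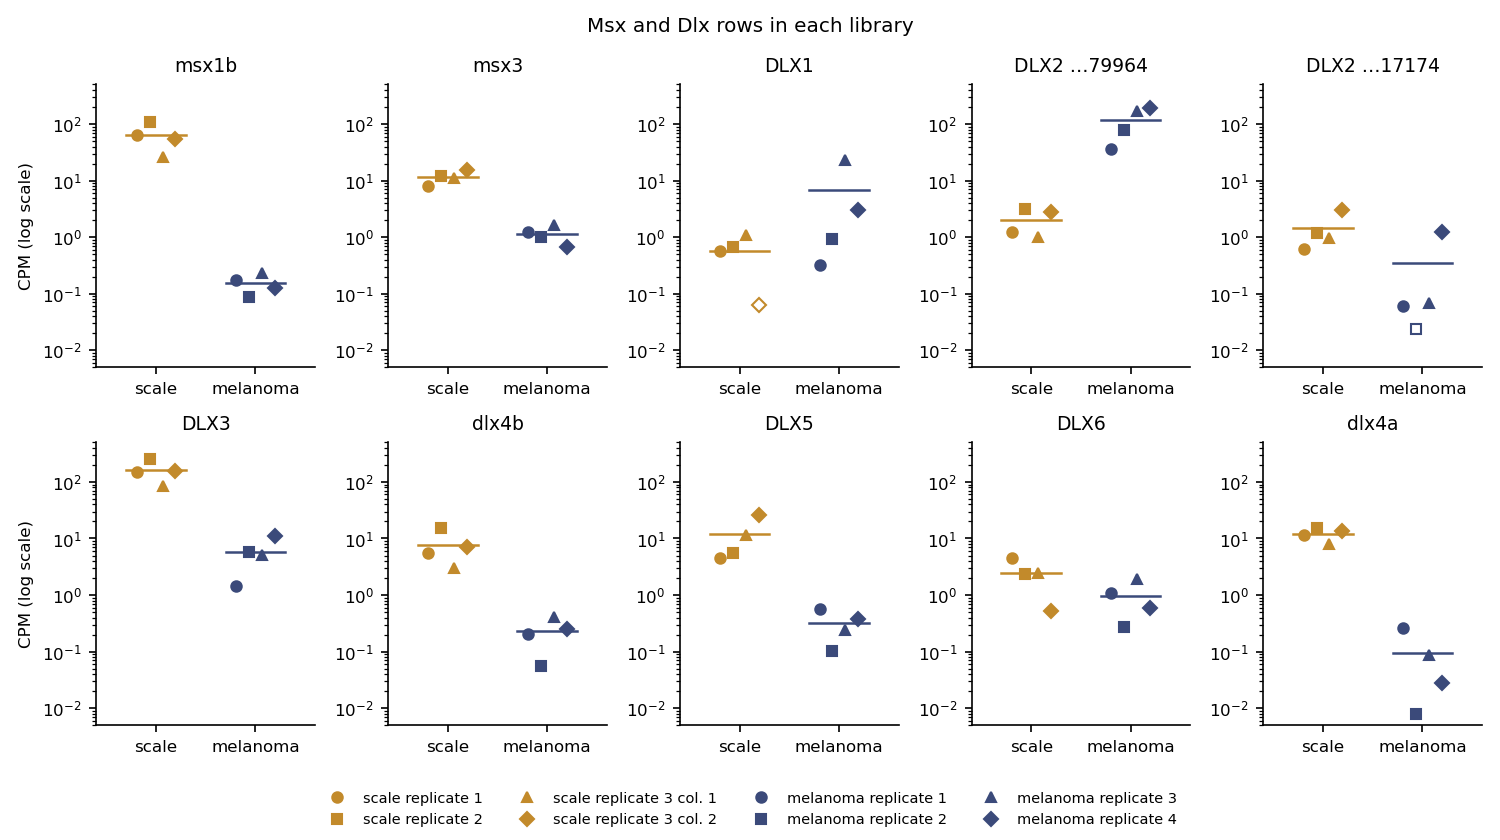
Level of each Msx and Dlx row (CPM after TMM scaling, log scale) in the 4 scale and 4 melanoma libraries; each symbol is 1 library, horizontal lines are group means and open symbols mark a count of 0, drawn at the level of 3 counts. The DLX2 panels are named by the last digits of their identifiers. msx1b, msx3, DLX3, dlx4b, DLX5 and dlx4a were lower in every melanoma library than in any scale library, and the DLX2 row with 36.0 to 189 CPM in melanoma was higher in every one.

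msx1b (ENSDARG00000008886) encodes a repressor of the Msx1 type that in zebrafish marks the dorsal neural tube, the neural plate border and the fins. It stood at 62.8, 110.1, 25.8 and 54.4 CPM in scale replicate 1, scale replicate 2 and the first and second columns of scale replicate 3. The 4 melanoma replicates held 0.177, 0.0867, 0.232 and 0.124 CPM, from between 11 and 34 counts each. All scale libraries were high and all melanoma libraries near the bottom of the measured range, with a wide gap between the groups. The means were 63.3 ± 35.01 and 0.155 ± 0.0634 CPM (SD, n = 4 libraries each), a log2 change of -8.66 ± 0.63 (SE), or 403-fold lower in melanoma. A lower change was seen in 0.303% of the genes tested. The SE, the size of the change over the square root of F in that test, is approximate.

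msx3 (ENSDARG00000015674), the other Msx factor with a row, is named like a mouse gene of the dorsal neural tube. Its level was 7.91, 12.2, 11.2 and 15.2 CPM in the scale libraries, in the same order. In melanoma replicates 1 to 4 it was 1.24, 1.02, 1.62 and 0.664 CPM. The groups did not overlap, and the second column of scale replicate 3 was the highest library. Means were 11.6 ± 3.001 and 1.14 ± 0.400 CPM (SD, n = 4 each), for a log2 change of -3.35 ± 0.44 (SE).

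The Msx genes thus differed in the size of their drop within the same libraries, which a ratio of their counts shows without any scaling between libraries. The ratio of msx1b to msx3 counts was 7.94, 9.01, 2.299 and 3.58 in the scale libraries. In melanoma it was 0.143, 0.0846, 0.143 and 0.188. Every melanoma ratio lay below every scale ratio. These ratios compare libraries and not the abundance of the 2 genes, whose transcript lengths were not used.

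DLX3 (ENSDARG00000014626), whose mammalian counterpart acts in epidermal differentiation and in hair, enamel and bone, held 149, 259, 85.7 and 156 CPM in the scale libraries. The melanoma libraries held 1.45, 5.78, 5.01 and 11.1 CPM. All scale libraries were higher than any melanoma library, and melanoma replicate 1 was the lowest of all. Its means of 162 ± 71.6 and 5.82 ± 3.96 CPM (SD, n = 4 each) gave a log2 change of -4.80 ± 0.63 (SE).

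dlx4b (ENSDARG00000071560) lies next to dlx3b and acts with it in the otic and olfactory placodes of the zebrafish. Its levels were 5.65, 15.4, 3.06 and 7.07 CPM over the scale libraries, against 0.202, 0.0552, 0.410 and 0.249 CPM over the melanomas. Again the groups did not overlap. The log2 change was -5.08 ± 0.74 (SE), from 7.81 ± 5.36 to 0.229 ± 0.146 CPM (SD, n = 4 each). DLX3 and dlx4b had their highest level in scale replicate 2 and their lowest scale level in the first column of replicate 3, the same libraries that bounded msx1b. The ratio of DLX3 to dlx4b counts was 26.4, 16.7, 27.98 and 22.1 in the scale libraries and 7.21, 105, 12.2 and 44.4 in melanoma. The melanoma ratios lay on both sides of the scale ratios, and that of melanoma replicate 2 rested on 7 counts of dlx4b.

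dlx4a (ENSDARG00000011956) is a further Dlx row that is not among the members; the others looked for, msx2a and dlx2b, had no row of their own name. It held 11.6, 15.1, 8.14 and 13.8 CPM over the scale libraries, against 0.257, 0.00788, 0.0888 and 0.0276 CPM over the melanomas, where its counts were 42, 1, 13 and 4. It fell by 6.96 ± 0.89 (SE) on the log2 scale, from 12.2 ± 3.05 to 0.0952 ± 0.113 CPM (SD, n = 4 each; edgeR adjusted p = 0.000149), and by 8.13 without melanoma replicate 1. The ratio of dlx4b to dlx4a counts was 0.486, 1.02, 0.376 and 0.513 in the scale libraries and 0.786, 7, 4.62 and 9 in melanoma, so the groups of ratios overlapped. The ratio of 7 in melanoma replicate 2 set 7 counts against 1, with a 95% interval from 0.899 to 315 (exact binomial, counting error only).

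DLX5 (ENSDARG00000042296) acts in the pharyngeal arches and fins, and in mouse it activates genes of bone-forming cells. It stood at 4.49, 5.53, 11.6 and 26.5 CPM over the scale libraries, against 0.562, 0.102, 0.246 and 0.373 CPM over the melanomas. The groups did not overlap, and the scale libraries were spread over 5.89 times from lowest to highest. Means were 12.0 ± 10.1 and 0.321 ± 0.195 CPM (SD, n = 4 each), a log2 change of -5.22 ± 0.75 (SE). Without the second column of scale replicate 3, which held the most DLX5, the change was -4.54.

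DLX6 (ENSDARG00000042291), the partner of DLX5 at the same locus, held 4.59, 2.401, 2.503 and 0.524 CPM over the scale libraries, against 1.0999, 0.268, 1.94 and 0.587 CPM over the melanomas. The groups overlapped: the second column of scale replicate 3, highest for DLX5, was the lowest scale library for DLX6 and lay below 3 melanoma libraries. Its log2 change was -1.36 ± 0.74 (SE), with means of 2.504 ± 1.66 and 0.974 ± 0.729 CPM (SD, n = 4 each). The ratio of DLX5 to DLX6 counts was accordingly 0.980, 2.31, 4.64 and 50.5 in the scale libraries, and 0.511, 0.382, 0.127 and 0.635 in melanoma. Every melanoma ratio lay below every scale ratio, and the scale ratios were spread widely.

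**Figure D2:**
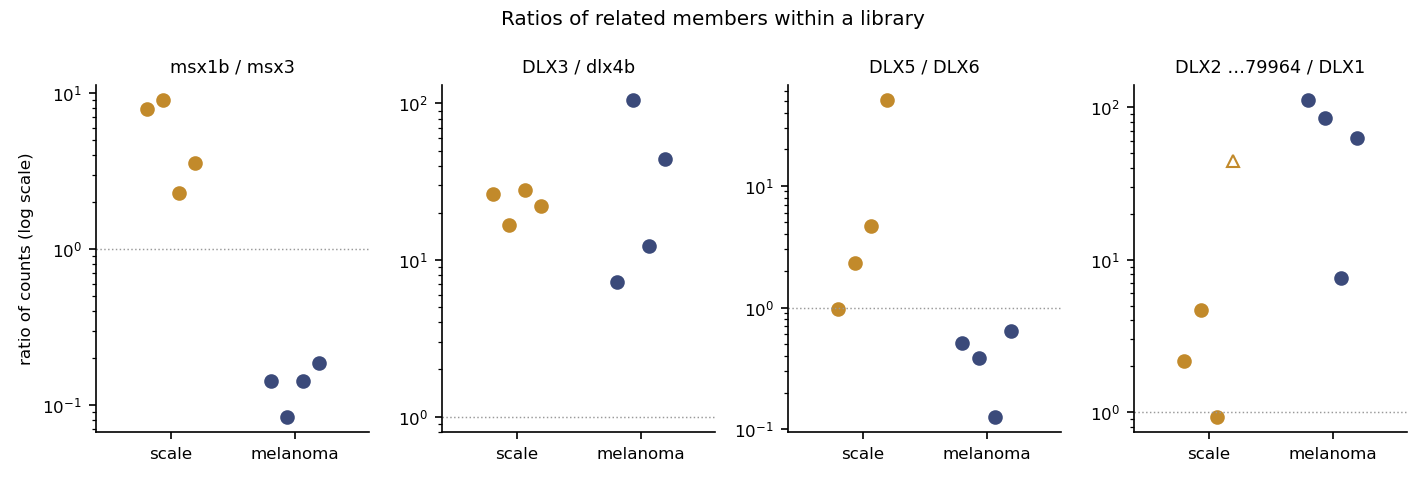
Ratio of the counts of related members within each library (log scale), 1 point per library; the open triangle is a lower bound, since the second column of scale replicate 3 had 0 counts of DLX1, and dotted lines mark a ratio of 1. The msx1b to msx3 and DLX5 to DLX6 ratios did not overlap between the groups, whereas the DLX3 to dlx4b ratios of melanoma (7.21 to 105) spanned those of the scale libraries (16.7 to 27.98).

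Across the scale libraries, DLX5 was ordered like the summed scale and bone markers given above (652, 1124, 4646 and 9530 CPM), and DLX6 was not. In melanoma replicates 1 to 4 these markers summed to 997, 322, 180 and 203 CPM: replicate 1 had the highest sum and the highest DLX5 level, whereas replicate 2, with the next sum, had the lowest DLX5 level. Fibroblast markers (15 rows) summed to 399, 670, 2589 and 4626 CPM in the scale libraries and to between 67.6 and 119 CPM in melanoma. The collagen genes COL1A2, COL1A1 and col1a1a were the most abundant of the scale and bone markers. COL1A2 is on both lists, so their sums are not independent. SP7, a factor of bone-forming cells on the scale and bone list, held 11.9 CPM in the second column of scale replicate 3. In the other scale libraries it held 2.13 to 3.19 CPM, so the order of the sum need not hold for each marker. DLX3 followed another order: its highest level was in scale replicate 2, which also had the highest epidermal sum of 127400 CPM, while its lowest was in the first column of replicate 3 with 64885 CPM and not in replicate 1, which had the lowest sum. The part that bone, fibroblast or epidermal cells play in these levels was not tested.

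**Figure D3:**
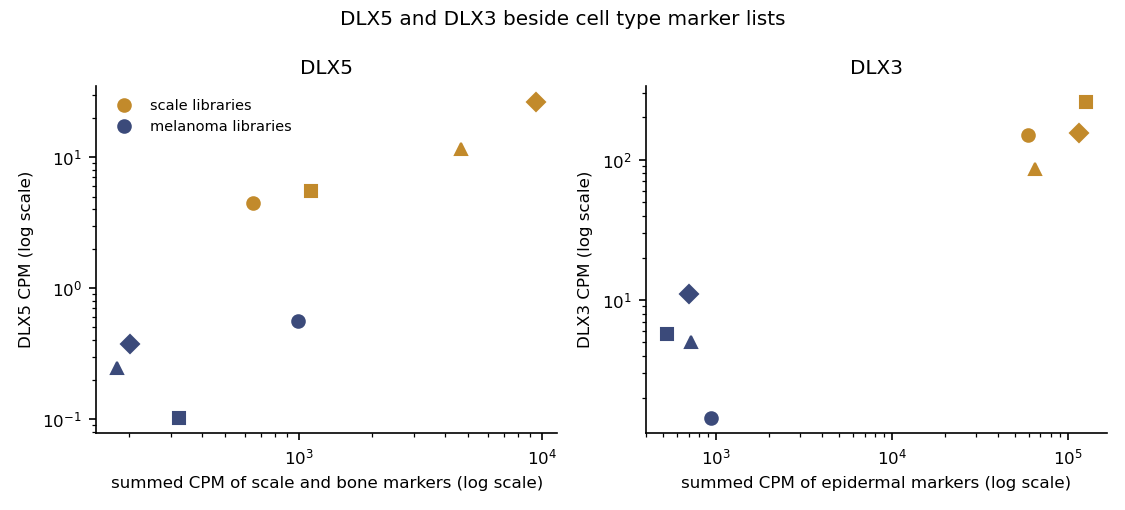
DLX5 against the summed CPM of scale and bone markers (left) and DLX3 against that of epidermal markers (right), each point 1 library, both axes on log scales, with symbols for the replicates as in the plot of levels by library. DLX5 ran from 4.49 to 26.5 CPM over scale libraries whose bone markers summed to 652 to 9530 CPM; for DLX3 the 2 groups stood apart on both axes.

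The member called higher in melanoma was the DLX2 row ENSDARG00000079964. DLX2 proteins act in crest cells of the pharyngeal arches and in forebrain interneurons. Its scale levels were 1.21, 3.11, 1.01 and 2.81 CPM, from between 83 and 140 counts. Melanoma replicates 1 to 4 held 36.0, 79.7, 173 and 189 CPM, from between 5894 and 27311 counts. Every melanoma library was above every scale library, and the melanoma libraries were spread over 5.24 times. Means of 2.04 ± 1.08 and 119 ± 73.6 CPM (SD, n = 4 each) gave a log2 change of 5.88 ± 0.67 (SE), or 58.8-fold higher. That change was above those of 99.7% of the genes tested.

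DLX2 row ENSDARG00000017174 behaved otherwise. It held 0.613, 1.18, 0.952 and 3.02 CPM over the scale libraries, against 0.0611, 0, 0.0683 and 1.24 CPM over the melanomas. In melanoma replicate 2 its count was 0, which allows up to 0.0236 CPM, and replicates 1 and 3 had 10 counts each, whereas replicate 4 had 180. That single library lay among the scale libraries, so the groups overlapped. The log2 change was -2.06 ± 1.27 (SE), and -4.99 without melanoma replicate 4. Reads that match both DLX2 rows could have been shared or lost in counting, which the sources used here do not describe. The ratio of counts of the first row to this one was between 0.931 and 2.64 in the scale libraries, and 152 or more in the 4 melanoma libraries.

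DLX1 (ENSDARG00000013125), the partner of dlx2a, held 0.560, 0.667, 1.09 and 0 CPM in the scale libraries; the 0 allows up to 0.0629 CPM. In melanoma it held 0.324, 0.938, 23.0 and 2.99 CPM. Melanoma replicate 3, with 3368 counts, was far above the rest, replicate 4 was next, and replicates 1 and 2 lay within the range of the scale libraries. The means were 0.578 ± 0.448 and 6.81 ± 10.9 CPM (SD, n = 4 each) and the log2 change 3.54 ± 1.32 (SE), which was 1.29 without melanoma replicate 3. The count ratio of the DLX2 row ENSDARG00000079964 to DLX1 was 7.53 in melanoma replicate 3 and 111, 85.0 and 63.2 in replicates 1, 2 and 4. In the scale libraries it was 2.17, 4.67 and 0.933, and at least 44.7 in the second column of replicate 3, taking 3 counts for the 0 of DLX1.

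**Figure D4:**
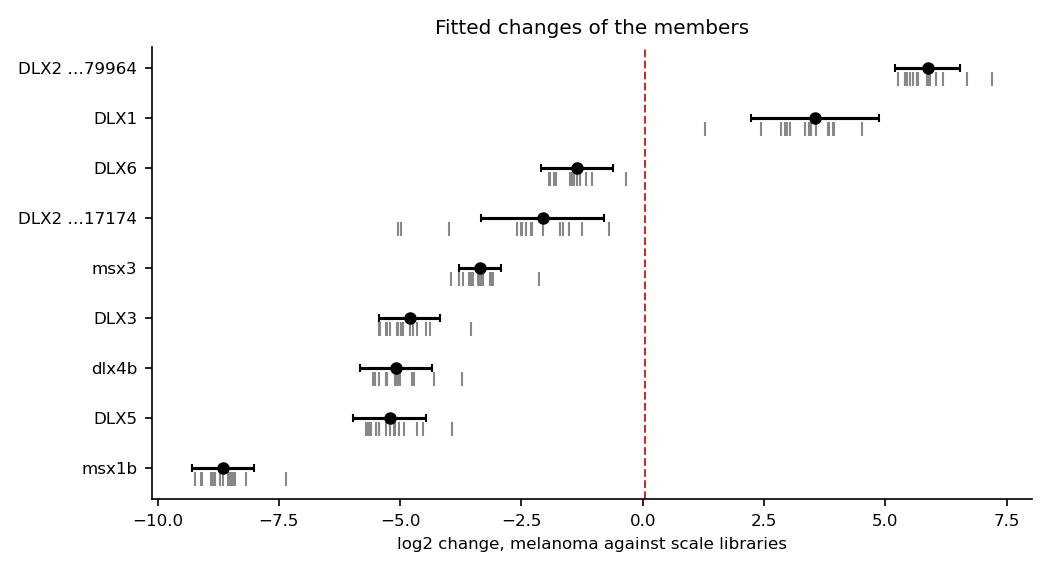
log2 change of each member, melanoma against scale libraries; points with bars are the change ± SE with all 8 libraries, grey ticks below them are the values under each other setting or with libraries left out, and the dashed line is the median of all genes, 0.05. The ticks of msx1b, msx3, DLX3, dlx4b and DLX5 all lie at -2.15 or lower, those of DLX1 run from 1.29 to 4.52 and those of the DLX2 row ENSDARG00000017174 from -5.05 to -0.70.

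The genes directly beside each Dlx pair and beside dlx2b were chosen after their values were seen. Those near the Msx genes and dlx4a are not given. The values are therefore a description and do not measure how far a direction was shared along the chromosome. Beside dlx1a and dlx2a, the histone acetyltransferase gene HAT1 rose from 8.06 ± 1.27 to 72.8 ± 29.3 CPM (SD, n = 4 each; log2 change 3.18, edgeR adjusted p = 0.000166). The integrin gene ITGA6 on the other side stood at 5.87 ± 1.96 and 5.27 ± 1.23 CPM (edgeR adjusted p = 0.777). Beside dlx2b, METAP1D was not called (log2 change 0.39, edgeR adjusted p = 0.433). On its other side itga6b fell from 982 ± 304 to 5.19 ± 4.43 CPM (log2 change -7.56, edgeR adjusted p = 5.04e-05). Which DLX2 row belongs to which of these places is not known. Next to DLX3, the integrin gene ITGA3 fell from 6.27 ± 2.01 to 1.22 ± 0.312 CPM (log2 change -2.36, edgeR adjusted p = 0.00185, and 0.0855 with total counts alone). The glucose-6-phosphatase gene g6pc1a.1 beyond dlx4b was at 0.474 ± 0.403 and 0.146 ± 0.0840 CPM (log2 change -1.70, edgeR adjusted p = 0.146), and was called lower without scale replicate 2 and the second column of replicate 3 (-2.47, 0.0373). Around DLX5 and DLX6 both neighbours rose although DLX5 was lower: the Argonaute gene AGO2 from 33.7 ± 14.8 to 210 ± 35.5 CPM (log2 change 2.64, edgeR adjusted p = 0.000587) and the proteasome-associated gene SEM1 from 27.4 ± 11.5 to 95.2 ± 22.6 CPM (log2 change 1.80, edgeR adjusted p = 0.00398). Neighbours come from RefSeq's assembly GRCz12tu, which is not the build that the submitters name, so no positions are given.

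At the neural plate border, where Msx genes act with Pax and Tfap2 factors to set up the neural crest, 6 of 22 genes tested rose, 6 fell and 10 were not called, with a median log2 change of -0.54, beside 0.05 over all genes, of which 36.8% were called. The crest factors FOXD3 (log2 change 8.14 ± 0.58 SE, edgeR adjusted p = 9.21e-06), SOX10 (8.71 ± 0.59, 9.21e-06) and PAX3 row ENSDARG00000010192 (4.96 ± 0.57, 8.28e-05) rose. The other PAX3 row, ENSDARG00000028348, was called lower (log2 change -1.90 ± 0.63 SE, edgeR adjusted p = 0.0335), though its groups overlapped. Both SOX9 rows, of a factor of crest and cartilage, fell: ENSDARG00000043923 fell by 6.08 ± 0.89 (edgeR adjusted p = 0.00034), and ENSDARG00000003293 fell by 4.74 ± 0.83 (0.00097), or by 5.62 without melanoma replicate 1. With total counts alone 2 genes of the list fell. Melanocyte markers rose beside the crest factors, 13 of 17, and their part was not tested. SOX10 is on both lists, so these counts are not independent.

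Of 13 tested rows listed for the preplacodal region, 2 rose and 5 fell (median log2 change -1.55), beside 21.7% and 15.2% of all genes. This region is the band that gives rise to sense organs and that dlx3b and dlx4b help to set up. The list also took in rows named PTX3, which is no placode factor. PTX3 row ENSDARG00000068275 is among the 5 that fell (log2 change -3.60, edgeR adjusted p = 0.00408), and PTX3 row ENSDARG00000079515 was not called. SOX3, a SoxB1 factor, held 114, 154, 104 and 165 CPM over the scale libraries, against 0.373, 0.0158, 0.505 and 0.643 CPM over the melanomas, and fell by 8.44 ± 0.88 (edgeR adjusted p = 4.55e-05). six4a fell by 3.95 ± 0.68 (edgeR adjusted p = 0.000929) and eya2, a coactivator of the same placode network, by 2.25 ± 0.44 (0.00202, and 0.104 with total counts alone). GATA2 rose by 3.75 ± 0.97 (edgeR adjusted p = 0.0102), and by 3.15 or 4.62 without scale replicate 2 or the second column of replicate 3. Its groups overlapped, with 0.544 CPM in melanoma replicate 2 and 0.839 CPM in the second column of scale replicate 3. SOX2, at 0.162 ± 0.307 and 2.43 ± 1.28 CPM (SD, n = 4 each), was called higher (log2 change 3.96 ± 1.33, edgeR adjusted p = 0.0343) but lost the call in 8 of 17 other settings and reached 7.73 without scale replicate 2.

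Among genes that respond to BMP, the signal upstream of Msx and several Dlx genes, 2 of 13 rose and 5 fell (median log2 change -0.97). The shares over all genes were 21.7% and 15.2%. The inhibitory Smad gene SMAD6 row ENSDARG00000031763 rose by 2.47 ± 0.66 (edgeR adjusted p = 0.0122), though its groups overlapped. The other SMAD6 row, ENSDARG00000053209, was not called (log2 change 2.19 ± 0.95 SE, edgeR adjusted p = 0.0905). GATA2, which is on this list and the preplacodal list, also rose. GATA3 is on both lists too and is among the 5 that fell in each (log2 change -1.66, edgeR adjusted p = 0.0134). HEY1, a bHLH repressor, fell by 5.85 ± 1.06 (edgeR adjusted p = 0.00124), and by 7.5 without melanoma replicate 4. The Id gene ID4 fell by 2.65 ± 0.62 (edgeR adjusted p = 0.0055) and the pseudoreceptor gene BAMBI by 2.56 ± 0.63 (0.00746), or by 3.45 without melanoma replicate 4. ID1 fell from 339 ± 141 to 111 ± 25.1 CPM (SD, n = 4 each; log2 change -1.62, edgeR adjusted p = 0.00917). The other Id rows, ID2, id2b and ID3, were not called (edgeR adjusted p = 0.116, 0.281 and 0.219). Without the 2 scale libraries with the fewest genes at 10 or more counts, 1 rose and 2 fell. The edgeR adjusted p was then 0.0562 for SMAD6 row ENSDARG00000031763 and 0.0617 for BAMBI. With total counts 1 gene fell, and the adjusted p was 0.103 for ID4 and 0.101 for BAMBI.

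Among transcription factors of the epidermis, the tissue of DLX3 in mammals, 14 of 16 genes tested fell and 0 rose in edgeR's test (median log2 change -4.39). The same test called 15.2% of all genes lower and 21.7% higher. At an unadjusted p under 0.05, with DESeq2 and with limma-voom 0 rose as well, and 9 fell with total counts alone. The Krüppel-like factors KLF5 row ENSDARG00000015506 (117.7 ± 35.3 against 0.683 ± 0.332 CPM; log2 change -7.42 ± 0.55, edgeR adjusted p = 9.21e-06) and KLF4 (195 ± 80.2 against 1.40 ± 0.400 CPM; -7.13 ± 0.52, 9.21e-06) and the grainyhead factor grhl2a (109 ± 23.0 against 0.445 ± 0.267 CPM; -7.93 ± 0.67, 1.45e-05) had the smallest adjusted p. This list fell together with the epidermal markers, of which all 21 tested fell. The factor tp63 was listed in both, so they are not fully independent. The part of epidermal cells in this list was not tested.

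In skeletal and appendage factors, which work with Msx and Dlx in bone, limbs and fins, 1 of 27 genes tested rose and 9 fell (median log2 change -1.37). Of all genes tested 21.7% rose and 15.2% fell, 36.8% in either direction. runx2b, a master factor of bone-forming cells, fell by 4.47 ± 0.50 (edgeR adjusted p = 6.59e-05), SP7, which acts after it, by 3.88 ± 0.73 (0.00153), and the LIM homeobox gene LMX1B by 2.86 ± 0.49 (0.000851). SP7 was highest in the second column of scale replicate 3, where it held 11.9 CPM against 2.13 to 3.19 CPM in the other scale libraries; without that library it fell by 3.04. ALX4 row ENSDARG00000088332, of a homeobox family active in frontonasal crest and in iridophores, was the gene that rose (3.71, 2.02, 7.72 and 1.89 CPM over the scale libraries, 115, 60.6, 373 and 511 CPM in the melanomas; log2 change 6.11 ± 0.82, edgeR adjusted p = 0.000203). With total counts 4 rose and 5 fell, and without melanoma replicate 1, 2 rose. Scale and bone markers moved with this list, 13 of 22 falling, and the part of bone cells in it was not tested. Both lists hold runx2b and SP7, so their counts are not independent.

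Other homeobox genes of the NKL class, the class that holds Msx and Dlx, mostly missed the threshold: 1 of 19 tested rose and 3 fell (median log2 change -0.22). Over all genes 36.8% were called. Over the other settings between 0 and 2 rose and between 0 and 5 fell. The 22 rows of this list summed to only 13.4 to 23.7 CPM in the scale libraries and 12.6 to 34.6 CPM in melanoma, so a missed call says little. BARX2 is also on the epidermal list and BARX1 on the skeletal and appendage list. BARX2, known from epithelia and muscle, fell by 2.33 ± 0.63 (edgeR adjusted p = 0.0123, and 0.185 with total counts alone). BARX1, of the arches, fell by 2.80 ± 1.0 (edgeR adjusted p = 0.045) and tlx2 by 1.81 ± 0.65 (0.0453), calls that were lost in 8 and 7 of 17 other settings. barhl1a rose by 1.56 ± 0.52 (edgeR adjusted p = 0.0328), was called in 6 of 18 other settings and stood at 0.90 without melanoma replicate 2. Of 10 genes that act with Dlx1 and Dlx2 in forebrain interneurons, 0 rose and 1 fell in edgeR's test (median log2 change -1.06), and 0 rose at an unadjusted p under 0.05, with DESeq2 or with limma-voom. That gene was the LIM homeobox gene LHX8, at 2.52 ± 0.441 and 0.0803 ± 0.0877 CPM (SD, n = 4 each). Its log2 change was -4.94 ± 0.97 (edgeR adjusted p = 0.00209), and -5.72 without melanoma replicate 1. In this list 3 genes fell without the second column of scale replicate 3, with or without scale replicate 2. The 11 rows of the list summed to only 4.80 to 13.1 CPM in the scale libraries and 2.62 to 4.77 CPM in melanoma. A missed call says little here too.

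**Figure D5:**
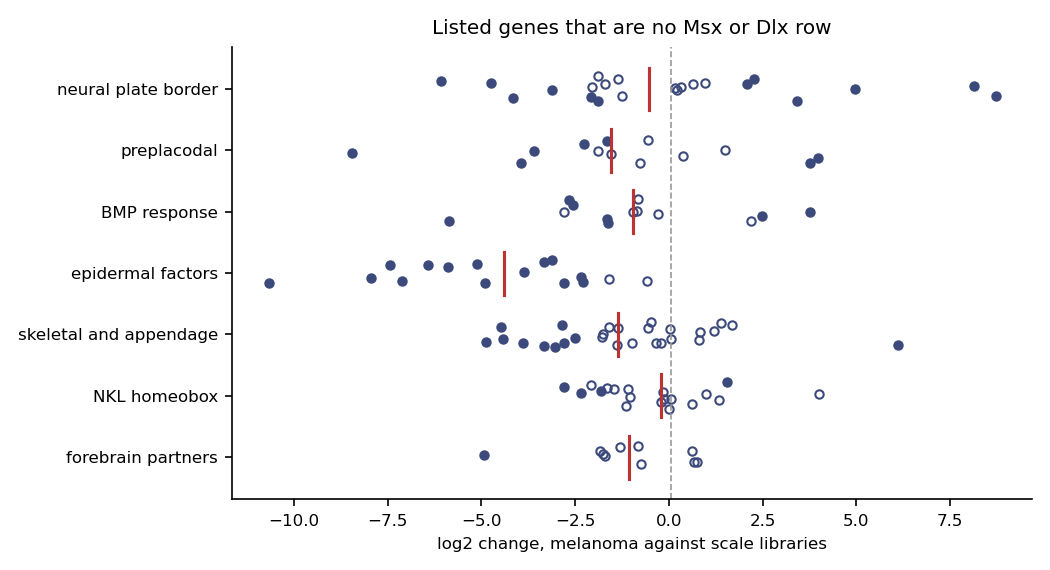
log2 change of each tested gene of the 7 lists, melanoma against scale libraries; filled points passed edgeR's test at an adjusted p under 0.05, open points did not, red bars are list medians and the dashed line is the median of all genes. The epidermal factors had a median of -4.39 with 14 of 16 called lower, whereas the NKL homeobox genes had a median of -0.22 with 4 of 19 called.

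The genes most like msx1b in their pattern over the 8 libraries, among 11104 tested genes at 1 CPM or more on average and with a symbol of their own, were the nicotinamide riboside kinase gene nmrk2, the kinase gene gsk3bb, DOP1A, the complement gene c8g and the ectonucleotidase gene entpd8. Their likeness, Pearson's r on log2 CPM, lay between 0.9965 and 0.9975. entpd8 held 499, 907, 403 and 601 CPM over the scale libraries, against 0.519, 0.426, 0.929 and 0.435 CPM over the melanomas, so its highest library was scale replicate 2 and its highest melanoma library replicate 3, as for msx1b. For DLX3, the Dlx member with the highest mean, they were the solute carrier gene SLC35G1, the deubiquitinase genes MINDY3 and USP31, the transcription factor gene NFE2L1 and the mevalonate kinase gene MVK (r between 0.9895 and 0.9954). SLC35G1 held 19.2, 42.6, 13.1 and 19.5 CPM over the scale libraries, against 0.574, 1.497, 1.09 and 2.77 CPM over the melanomas, in the same order of libraries as DLX3 within each group. The 8 points fall into 2 groups that stand apart for all of these genes, and r carries no test.

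Of the marker lists, 13 of 17 melanocyte genes tested rose and 0 fell in edgeR's test (0 also at an unadjusted p under 0.05, with DESeq2 and with limma-voom, but 1 with the filter of 5 CPM and 1 without the 2 less complex scale libraries), including TYRP1 row ENSDARG00000056151 (35.7 ± 12.9 against 2930 ± 2526 CPM), pmela (22.5 ± 11.9 against 1982 ± 1319 CPM) and DCT (2.65 ± 1.07 against 542 ± 448 CPM). The epidermal markers with the highest means were krt91 (log2 change -11.42), krt5 (-9.46) and icn (-4.22). Of 22 scale and bone markers 13 fell and 1 rose, with COL1A2 (-8.85), COL1A1 (-7.79) and col1a1a (-7.94) the most abundant, and of 15 fibroblast markers 12 fell and 2 rose, with thy1 at -2.22 (edgeR adjusted p = 0.0571 with total counts alone) and COL5A1 at -4.13; over the other settings between 0 and 4 scale and bone markers rose, and with total counts 6 fibroblast markers fell. Leaving out melanoma replicate 3 moved TYRP1 to 5.69 from 6.36, leaving out melanoma replicate 4 moved krt91 to -12.35 and krt5 to -10.24, and leaving out single libraries put COL1A2 between -10.12 and -8.04, COL1A1 between -8.57 and -6.76 and col1a1a between -9.39 and -6.90. Immune markers summed to between 1819 and 4393 CPM over the scale libraries, against 346 to 3201 CPM over the melanomas, with 2 of 14 higher and 2 lower, and between 0 and 5 higher and 1 and 3 lower over the other settings. cd74a stood at -1.35 (edgeR adjusted p = 0.13) and was called lower with DESeq2 (0.0466), with the filter of 5 CPM (0.0424) and without melanoma replicate 1 (-2.03, 0.0288). cd74b stood at -1.0 (edgeR adjusted p = 0.146) and was called lower with the filter of 5 CPM (0.0312). LCP1 rose by 2.16 (edgeR adjusted p = 0.0153), a call that 5 of 18 other settings lost, and stood at 1.25 without melanoma replicate 1. Endothelial, muscle and nervous markers summed to at most 42.6, 34.0 and 110.0 CPM in any library. Among 9 endothelial genes tested 1 rose and 2 fell, among 16 of muscle 1 rose and 3 fell, and among 15 of nerve and glia 0 rose (0 at an unadjusted p under 0.05, with DESeq2 or with limma-voom, and 1 with total counts) and 2 fell. Over all genes tested 21.7% were called higher and 15.2% lower, the shares to set beside each marker list. The counts of endothelial, muscle and nervous genes moved with the setting. Of the nerve and glia genes 5 fell with DESeq2, 4 with limma-voom or upper quartile scaling, 5 without melanoma replicate 1, 8 without the 2 less complex scale libraries, and 0 with total counts or the replicate block. Over the other settings between 0 and 3 muscle genes rose and between 0 and 5 fell, and between 0 and 3 endothelial genes fell.

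Of the most abundant genes of these 3 lists, tek rose (log2 change 2.56). ACTA1 rose by 4.53, by 3.42 without melanoma replicate 1 and by 5.53 without the first column of scale replicate 3, and it lost its call when the 2 less complex scale libraries were left out (edgeR adjusted p = 0.0744) or limma-voom was used (adjusted p = 0.0641). cdh5 fell (log2 change -2.20), a call that was lost with total counts (edgeR adjusted p = 0.229), with the replicate block (0.0909) and without melanoma replicate 4 (0.0509). TNNT3 fell by 3.05 (edgeR adjusted p = 0.0519 with total counts). FLI1 (-0.22), DES (1.43, and 0.66 without melanoma replicate 2) and FABP7 (-0.08) were not called. mbpb, at -0.46, was not called with all libraries and TMM scaling, but was called higher with total counts (0.83, edgeR adjusted p = 0.0344) and lower with the filter of 5 CPM (-1.02, 0.018). EGR2, at -1.55, was likewise not called, but was called lower with limma-voom (adjusted p = 0.00986) and without melanoma replicate 1 (-4.91, edgeR adjusted p = 3.15e-05).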

How the data were processed

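Sorted EGFP-positive, unpigmented cells were lysed in Trizol and their RNA made into Illumina TruSeq libraries, per the labels' protocols. Values tested here are the authors' deposited counts, whole numbers of reads per Ensembl gene. A further deposited table gives a normalized signal, which for each library equals its counts over a constant, the authors' size factor. Tools named in the submitters' processing notes are STAR 2.3, HTSeq and DESeq2, and the build is Zv9; the notes give no role or order. Strand, annotation release and the treatment of shared reads: not given in the sources used here. The smallest row sum was 40 counts and each row reached at least 12 counts in 1 library.

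Columns were matched to the 8 samples by name, 0 columns of values were left unused, and both scale columns named replicate 3 were used as 2 libraries of their group; the sample titles also give a scale replicate 4, and which of the 2 columns holds it is not known. Only the replicate block took the number 3 for both. Libraries of a group differed by more than counting noise (chi-square per degree of freedom of 148.5 or more). Genes were kept with filterByExpr and tested with edgeR 4.0.16 in R 4.3.3 (TMM, quasi-likelihood, group only), with Benjamini-Hochberg adjustment over 26749 genes and a threshold of 0.05. The test was run on simulated counts with 50 changed genes at each size and all other genes unchanged, unlike the data. It recovered 0% of 2-fold, 30% of 4-fold, 92% of 16-fold and 100% of 64-fold changes. It made 115 calls there, against 9855 in the data. With so few changed genes the adjustment is stricter, so these shares cannot be carried over to the data. A gene that was not called can still differ by 2-fold or 4-fold. TMM factors ran from 0.467 to 0.874 in the scale libraries and from 1.37 to 1.67 in melanoma, so the scaling differs by group. The 10 top genes of a library held 31.9% to 41.6% of its counts in the scale libraries and 5.83% to 6.51% in melanoma. Symbols were found for 19599 of 28272 rows. Of 313 symbols in 16 lists, 256 had a row. The members and the lists were chosen with earlier results of these data known. PTX3 rows, a further PAX3 row, a further SMAD6 row, GATA3, tp63, the Id rows other than ID4 and the genes beside Dlx genes are named besides those given by rule. The rule for names took all Msx and Dlx rows, up to 3 called genes per direction and list by adjusted p, and the 3 most abundant of each marker list. It also took the 5 genes most like msx1b and like the most abundant Dlx member (log2 CPM, prior count 2). A gene picked by this rule, and a further allele in the strain label, are not reported here. Settings tried were RLE and upper quartile scaling, total counts alone, DESeq2 1.42.0, limma-voom (limma 3.58.1), all rows unfiltered, a minimum of 5 CPM in 4 libraries, the replicate number as a block, leaving out each library, leaving out the 2 scale libraries with the fewest genes at 10 or more counts and, added after seeing the data, the authors' size factors. Python 3.11.15, pandas 2.3.3 and matplotlib 3.10.9 made tables and figures. Sequences of the members were not used here.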

Additional observations from a re-analysis of the deposited data

Results flagged for a closer look

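In each group of 4 libraries the highest and lowest CPM of 76 genes were set against the gap that Dixon's test allows at 95%. Of these 152 groups 15 passed. For independent, normally distributed values chance flags about 1 in 20. CPM values are skewed and all genes share the same libraries, so the number that passed cannot be set against that rate. Among the members, DLX1 stood at 23.0 CPM in melanoma replicate 3, beside 0.324 to 2.99 CPM in the other melanoma libraries, and the DLX2 row ENSDARG00000017174 at 1.24 CPM in melanoma replicate 4, beside 0 to 0.0683 CPM.

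Among the scale libraries, replicate 2 held 0.622 CPM of SOX2 beside 0 to 0.0267 CPM in the others, 144 CPM of grhl2a beside 94.5 to 99.9 CPM, and 1.87 CPM of LHX8 beside 2.66 to 2.79 CPM. The second column of replicate 3 held 11.9 CPM of SP7 beside 2.13 to 3.19 CPM and 9.94 CPM of HAT1 beside 7.16 to 7.63 CPM. The first column of replicate 3 held 0.903 CPM of ACTA1 beside 0.133 to 0.200 CPM.

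Among the melanoma libraries, replicate 1 held 19.5 CPM of EGR2 beside 0.451 to 0.601 CPM, 3.43 CPM of MVK beside 7.05 to 7.68 CPM and 61.6 CPM of SEM1 beside 102 to 110 CPM. Replicate 2 held 13.1 CPM of barhl1a beside 3.14 to 4.33 CPM, 0.0867 CPM of TNNT3 beside 0.670 to 0.744 CPM and 0.0158 CPM of nmrk2 beside 0.0484 to 0.0546 CPM. Replicate 3 held 3933 CPM of pmela beside 1028 to 1492 CPM.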

How the results depend on the processing

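The signs of all 9 members were kept in every setting that tested them. The calls of msx1b, msx3, the DLX2 row ENSDARG00000079964, DLX3, dlx4b and DLX5 also held in each setting that tested them. Each setting reuses libraries of the contrast on which the members were picked, so kept calls describe the processing and are no support. The filter of 5 CPM in 4 libraries kept 4 members, of which 3 were called lower, with msx3 at -3.95. With total counts alone the changes were -7.36 for msx1b, -2.15 for msx3, 7.20 for that DLX2 row, -3.54 for DLX3, -3.72 for dlx4b and -3.92 for DLX5, against a median of all genes of 1.17. Members called higher numbered 2 instead of 1 with RLE, total counts or the authors' size factors, where DLX1 passed. The DLX2 row ENSDARG00000017174 stood at -3.998 with limma-voom, which called 6 members lower. With total counts 10873 genes were higher and 1778 lower (5799 and 4056 as reported), and 19 listed genes rose and 22 fell (11 and 41). The filter of 5 CPM left 3272 genes higher, 7 listed genes risen and 22 fallen; fewer genes are tested there.

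Leaving out 1 library gave 3981 to 5822 genes higher and 3188 to 4653 lower, 1 to 2 members higher and 5 to 6 lower, and 8 to 13 listed genes risen and 36 to 45 fallen. Changes then ran from -9.10 to -8.41 for msx1b, -3.70 to -3.15 for msx3, 1.29 to 3.95 for DLX1, 5.40 to 6.19 for DLX2 row ENSDARG00000079964, -4.99 to -1.53 (-1.64 without melanoma replicate 2) for DLX2 row ENSDARG00000017174, -5.30 to -4.47 for DLX3, -5.56 to -4.71 for dlx4b, -5.71 to -4.54 for DLX5 and -1.93 to -1.04 for DLX6. Without melanoma replicate 1 or 2, 2 members were called higher, and without melanoma replicate 4, 6 lower. Signs turned for some genes that were not called with TMM scaling: with total counts cd74a was at 0.0041, cd74b at 0.30, FLI1 at 0.73, FABP7 at 1.21, ITGA6 at 0.92 and mbpb at 0.83, where mbpb was called higher. FLI1 was at 0.10 without scale replicate 1 and -0.55 without scale replicate 2. FABP7 was at 0.31 and 0.17 without melanoma replicates 1 and 2, and at -0.50 without scale replicate 1. Leaving out both less complex scale libraries put it at 0.48 and mbpb at 0.009. The causes were not tested.

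Replicate numbers are shared between the groups, but same-numbered libraries deviated together only in part: correlations of deviations were -0.0186 for number 1, 0.107 for number 2, and 0.173 and -0.153 for the 2 columns of number 3. The block gives both of those columns the number 3, as their names do, although 1 may be scale replicate 4, and melanoma replicate 4 then has no partner; its values are limited by this. With the number as a replicate block 4116 genes were higher and 2743 lower, 1 member was higher and 6 lower, and the DLX2 row ENSDARG00000017174 was at -5.05. The depth limits rows with few counts, such as dlx4b, dlx4a and DLX1.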
